A study of Mus musculus with 12 samples.

Results

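The genes described here are *Cd72* and 9 other genes of families of inhibitory receptors known for an immunoreceptor tyrosine-based inhibitory motif (ITIM) in the cytoplasmic tail: *Cd22*, *Cd33*, *Siglece*, *Pirb*, *Lilrb4a*, *Sirpa*, *Cd300a*, *Cd300lf* and *Lair1*. *Cd72* was chosen by its difference between genotypes, since no gene lower in the knock-in cultures had a smaller p-value. Its genotype difference is therefore given as a description with no test. The other 9 were chosen by receptor type, *Cd33* among them, although mouse CD33 is known to have an ITIM-like motif in place of the canonical one of human CD33. All 10 were found by symbol, with 1 identifier each, among the 48623 genes of the table. Polyadenylated RNA was sequenced from primary microglia, the resident macrophages of the brain, grown from cortices and hippocampi of newborn mice on the C57BL/6J background. Cultures were wild type (WT) or homozygous for the *Trem2* R47H point mutation knocked into the endogenous gene (KI), an allele carried by every cell of the animal and known to lower *Trem2* through altered splicing. The sample names carry a T number, and each number has 1 library without treatment and 1 after 48 h with 20 ng/ml of interleukin-4 (IL-4), a cytokine that drives macrophages away from the inflammatory state. A number is taken here to name a culture, which the labels do not state. The WT cultures T13, T33 and T43 and the KI cultures T15, T22 and T32 thus made 12 libraries in 4 groups of 3. The WT animals are described as littermates, and pups of the knock-in line were kept in separate cultures and genotyped later.

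An ITIM is phosphorylated by Src-family kinases such as Lyn when the receptor binds its ligand, and the phosphorylated motif recruits the phosphatases SHP-1 (*Ptpn6*), SHP-2 (*Ptpn11*) or SHIP1 (*Inpp5d*). These oppose signals from receptors that work through the ITAM adaptors DAP12 (*Tyrobp*) and FcRγ (*Fcer1g*), and TREM2 is a receptor of that activating kind. In the brain these receptors are best known from microglia and border macrophages. CD72, a C-type lectin-like receptor for semaphorin 4D (*Sema4d*), and CD22, a sialic acid receptor, are best known as restraints on the B-cell receptor.

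Values are TPM, a transcript abundance corrected for transcript length. They sum to 1000000 in each library and keep no record of the reads counted, so the depth behind a value is unknown. Where 3 values follow each other they are those of T13, T33 and T43 for WT and of T15, T22 and T32 for KI, in that order. Between 20750 and 23945 genes were above 0 per library. *Trem2*, the targeted gene, was at 1328, 1886 and 1538 TPM in WT and at 324.6, 769.9 and 602.2 TPM in KI without treatment. These values do not show the R47H base itself. Markers of microglia were present in every library, at a summed 20570 to 21116 TPM for 16 genes in untreated WT and 9205 to 16702 TPM in untreated KI. After IL-4 the same sum was 24116 to 29839 TPM in WT and 16472 to 21068 TPM in KI. Astrocyte markers stood highest in KI culture T15, where 8 genes summed to 4599 TPM untreated and 3509 TPM after IL-4, against 157 to 661 TPM in the 10 other libraries. The genotype differences of the 10 receptors are therefore given with and without T15. In bulk RNA, fewer microglia, less RNA per microglial cell and lower expression of the markers themselves cannot be told apart. The study reports lower *C1qa* and *Csf1r* in cultured microglia after acute *Trem2* knockdown. It also reports that the share of microglia was much the same in WT and homozygous KI cultures.

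Promoter sequences are shown because the members share a short sequence there that their choice did not use. RefSeq promoters (GRCm38.p6, 250 bases before to 50 bases after the start site) were found for 8 of the 10 genes, all but *Lilrb4a* and *Sirpa*. The core letters GAGGAA of the site bound by PU.1, the transcription factor of macrophages and B cells, were searched on both strands, so that TTCCTC is the same core read from the other strand. They occurred in 7 of the 8 promoters, all but that of *Cd22*, and in 28.3% of all 32851 promoters. The *Cd72* promoter, chr4:43454577-43454876 on the minus strand, held it once, beginning 47 bases before the start site. It is printed whole, with the match in capitals.
Cd72: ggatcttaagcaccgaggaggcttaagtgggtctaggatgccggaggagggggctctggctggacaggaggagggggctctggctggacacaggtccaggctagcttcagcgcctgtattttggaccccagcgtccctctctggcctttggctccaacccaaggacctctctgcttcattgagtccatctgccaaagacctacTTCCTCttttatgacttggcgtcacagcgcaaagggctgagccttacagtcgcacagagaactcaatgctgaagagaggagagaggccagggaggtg

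A match within 50 bases before the start site was found in *Cd72* and 4 other promoters, and the nearest of each is set out as 30 bases with the core in capitals. These lie at chr4:43454656-43454685 (minus strand) for *Cd72*, chr7:4063213-4063242 (minus) for *Lair1*, chr11:114889990-114890019 (plus) for *Cd300a*, chr11:115134018-115134047 (minus) for *Cd300lf* and chr7:43660155-43660184 (minus) for *Siglece*. They begin 47, 26, 39, 43 and 11 bases before the start, and *Cd300lf* holds a further core at the start itself.
Cd72: ccaaagacctacTTCCTCttttatgacttg
Lair1: aagagaaacctcTTCCTCtccatgtgggga
Cd300a: ggctagcaggtcTTCCTCtccacaaggctg
Cd300lf: caccctacctccTTCCTCttttggtgcttt
Siglece: tgcatctcttagTTCCTCaaagcagagcct

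The cores of *Pirb* lay 185, 120 and 87 bases before the start, and that of *Cd33* lay 226 bases before it. A spaced palindrome bound by STAT6, the factor activated by the IL-4 receptor, was searched as TTCNNNNGAA and was found in the *Lair1* promoter only, 81 bases before the start, and in 6.95% of all promoters. The *Cd72* promoter did not hold these letters. Such matches describe the sequence, and binding was not tested. *Spi1*, which encodes PU.1, was looked up after other values were seen and was at 266 to 325 TPM in untreated WT and 148 to 236 TPM in untreated KI libraries. After IL-4 the genotypes overlapped, with *Spi1* at 291 to 315 TPM in WT and 164 to 312 TPM in KI.

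*Cd72* was among the most abundant of the 10 receptors in WT microglia and stood below *Sirpa* in mean level in every group but IL-4-treated WT. The gene (ENSMUSG00000028459) lies on chromosome 4, 43446462 to 43454628, minus strand (GRCm38). Without treatment it was at 675.5, 794.9 and 657.3 TPM in WT and at 251.4, 278.9 and 229.5 TPM in KI. After IL-4 it was at 1111, 1032 and 991.8 TPM in WT and at 344.9, 381.2 and 454.2 TPM in KI. Every KI library lay below every WT library, treated or not. The KI mean was 0.357 of the WT mean in untreated and 0.377 of it in IL-4-treated libraries. On the log2(TPM + 1) scale used for all differences here, KI minus WT averaged over both treatments was -1.45 (standard error, SE, 0.10, 3 cultures a genotype). This SE counts the untreated and the IL-4-treated library of a culture as independent, as does every fit here without a culture block. The difference was -1.40 without T15 and -1.38 with the astrocyte markers as a covariate. The share of *Cd72* in the summed TPM of the 10 receptors was 28.1% ± 1.9 (SD, n = 3) in untreated WT, 35.2% ± 0.8 in IL-4-treated WT, 18.8% ± 9.6 in untreated KI and 23.2% ± 1.9 in IL-4-treated KI. The wide spread in untreated KI came from T15, at 29.8% and thus above the untreated WT libraries (25.9% to 29.2%), while the lowest KI library was at 12.8%. Exons of *Tesk1* on the other strand cover 41.58% of the exonic bases of *Cd72*. The study made its libraries from fragmented cDNA with a DNA library kit, which keeps no strand. Reads of the pair thus cannot be told apart by strand there. *Tesk1* was at 45.9 to 70.1 TPM over the 12 libraries.

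**Figure D1:**
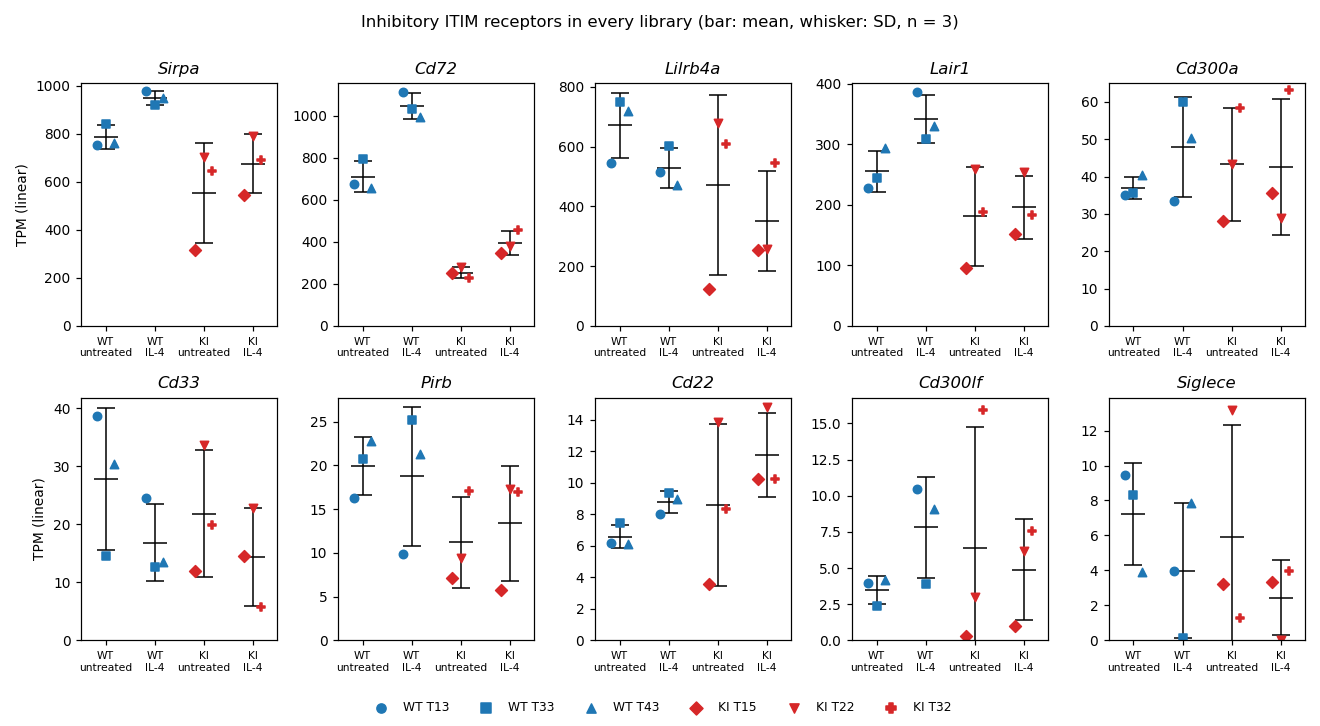
TPM of the 10 receptors (linear axis starting at 0, a separate scale for each gene) in every library of the 4 groups, with points for cultures, bars for the mean and whiskers for the SD of 3 cultures. For *Cd72* the 6 KI libraries sit between 229.5 and 454.2 TPM, all below the lowest WT library at 657.3 TPM, whereas KI and WT points overlap for most other receptors.

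The 10 receptors fell into an abundant and a scarce set. *Sirpa*, *Cd72*, *Lilrb4a* and *Lair1* together took 95.9% ± 0.7 (SD, n = 3) of the 10 receptors' TPM in untreated WT and 93.7% ± 0.5 in untreated KI. In untreated WT the order of mean levels was *Sirpa* at 786 TPM, *Cd72* at 709 TPM and *Lilrb4a* at 671 TPM, whose neighbouring ranges overlapped, and then *Lair1* at 255 TPM, whose range lay below theirs. The range of *Cd33*, at 27.9 TPM, overlapped those of *Cd300a* at 37.0 TPM and *Pirb* at 20.0 TPM, and these 3 overlapped no other receptor. *Siglece* at 7.21 TPM and *Cd22* at 6.59 TPM overlapped too, and *Cd300lf* at 3.48 TPM overlapped with *Siglece* but not with *Cd22*. In IL-4-treated WT, *Cd72* stood first at 1045 TPM, and its range of 991.8 to 1111 TPM did not overlap that of *Sirpa*, at 918 to 977 TPM. In IL-4-treated KI, *Sirpa* stood first at 676 TPM, above *Cd72* at 393 TPM with no overlap, and *Cd72* overlapped with *Lilrb4a* at 351 TPM. In untreated KI the ranges of *Sirpa* and *Lilrb4a*, of *Lilrb4a* and *Cd72*, and of *Cd72* and *Lair1* all overlapped. The ratio of *Cd72* to *Sirpa* was 0.90 ± 0.04 in untreated WT, 1.10 ± 0.05 in IL-4-treated WT, 0.52 ± 0.24 in untreated KI and 0.59 ± 0.09 in IL-4-treated KI (SD, n = 3).

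Among the other abundant receptors, the average level was lower in KI for all 3, and none passed the test. *Sirpa* encodes SIRPα, which binds the "don't eat me" signal CD47, and lies on chromosome 2, 129592835 to 129632228, plus strand. Without treatment it was at 752.2, 842.5 and 763.4 TPM in WT and at 316.6, 704.4 and 643.3 TPM in KI. After IL-4 it was at 977.1, 918.3 and 949.7 TPM in WT and at 546.7, 790 and 690 TPM in KI. Each KI library lay below each WT library of the same treatment, which held for no other receptor but the chosen *Cd72* and for 1.23% of the 11204 genes tested. The KI minus WT difference of *Sirpa* was -0.54 (SE 0.17, adjusted p = 0.226, limma's F-test over all genes), and it was -0.29 (adjusted p = 0.299) without T15. T15 was the lowest KI culture in both treatments.

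*Lair1*, a collagen receptor, lies on chromosome 7, 4003402 to 4063204, minus strand. Without treatment it was at 227.7, 243.4 and 293.5 TPM in WT and at 95.9, 259.6 and 187.4 TPM in KI. After IL-4 it was at 386.2, 308.9 and 329.9 TPM in WT and at 151.3, 253.3 and 183 TPM in KI. The groups did not overlap after IL-4, and untreated KI culture T22 lay within the WT range. The average difference was -0.71 (SE 0.21, adjusted p = 0.175, limma's F-test). The value was -0.43 (adjusted p = 0.257) without T15 and passed the threshold in the fit without T22, at -0.97 with an adjusted p of 0.0469. Over the alternatives listed in the closing section its adjusted p ran from 0.0469 to 0.590.

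*Lilrb4a* encodes a receptor of the leukocyte immunoglobulin-like family and lies on chromosome 10, 51490956 to 51496611, plus strand. Without treatment it was at 546.6, 748.1 and 718.8 TPM in WT and at 124.9, 678.8 and 607.4 TPM in KI. After IL-4 it was at 514.2, 602.4 and 471.6 TPM in WT and at 252.8, 256.8 and 544.2 TPM in KI. KI culture T15 was far below the others when untreated, and T15 and T22 were low after IL-4, while T32 stayed within the WT range. Its average difference was -0.76 (SE 0.35, adjusted p = 0.464, limma's F-test), or -0.27 (adjusted p = 0.610) without T15. The neighbouring paralogue *Lilr4b*, looked up after these values were seen, was at 115 to 421 TPM, and *Gm49339*, whose exons cover 35.32% of the exonic bases of *Lilrb4a* on the same strand, was at 53.5 to 359 TPM. Reads can be split among the 3 genes, so the level of *Lilrb4a* is uncertain.

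None of the 6 scarce receptors passed the genotype test. Of the 3 sialic acid receptors on chromosome 7, *Cd33* ranged over the 12 libraries from 5.76 to 38.7 TPM, *Siglece* from 0.000855 to 13.2 TPM and *Cd22* from 3.57 to 14.8 TPM. The KI minus WT differences were -0.34 for *Cd33* (95% interval -1.12 to 0.44), -0.50 for *Siglece* (-1.82 to 0.83) and 0.27 for *Cd22* (-0.38 to 0.93), with adjusted p-values of 0.872, 0.904 and 0.870 (limma's F-test). Without T15 they were -0.22, -0.58 and 0.54. *Cd22* was the 1 receptor of the 10 with a higher average in KI. Without treatment it was at 6.20, 7.43 and 6.14 TPM in WT and at 3.57, 13.9 and 8.31 TPM in KI, so KI values lay on both sides of WT. After IL-4 it was at 8.02, 9.38 and 8.98 TPM in WT and at 10.3, 14.8 and 10.2 TPM in KI, with no overlap. *Cd22* and *Cd72* are both known from B cells. The B-cell genes *Cd79a*, *Pax5* and *Blk* were listed at 0 in every library, and the 6 B-cell markers read here summed to at most 13.8 TPM.

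*Pirb*, a receptor for MHC class I, ranged from 5.80 to 25.1 TPM and differed by -0.67 between genotypes (95% interval -1.38 to 0.03, adjusted p = 0.490, limma's F-test), or by -0.31 without T15. The related *Pira* genes have nearly identical sequence, so its level is uncertain too. The CD300 receptors, which bind membrane phospholipids, lie on chromosome 11. *Cd300a* ranged from 28.2 to 63.1 TPM, with a difference of -0.02 (95% interval -0.52 to 0.47). *Cd300lf* ranged from 0.276 to 15.9 TPM, both ends in untreated KI cultures, with a difference of -0.37 (95% interval -1.62 to 0.88). Without T15 both turned positive, at 0.16 for *Cd300a* and 0.41 for *Cd300lf*.

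Of the 10 receptors, 9 had a lower average in KI and *Cd22* a higher one. The 9 include *Cd72*, whose direction was fixed by its choice, and the share of all genes lower in KI was not counted. The median difference, *Cd72* included, was -0.52, beside 0.13 over all 11204 genes tested. Without T15, 7 of the 10 averages were lower in KI and 3 were higher, as *Cd300a* and *Cd300lf* turned, and the median was -0.28 beside 0.10 over all genes. *Cd72* aside, none of the other 9 passed the adjusted threshold of 0.05 in limma's F-test, where 1.65% of all genes passed and 0.357% passed in the lower direction. At an unadjusted p below 0.05 there were 2 of these 9 (*Sirpa* and *Lair1*), beside 16.1% of all genes. The split of calls moved with the scaling, as 21.6% of the calls were lower in KI here, 40% with quantile-normalized values and 32.3% with scaling by median ratios. Under these 2 settings the median of all genes moved from 0.13 to -0.08 and 0.02, and that of the 10 receptors from -0.52 to -0.71 and -0.61.

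**Figure D2:**
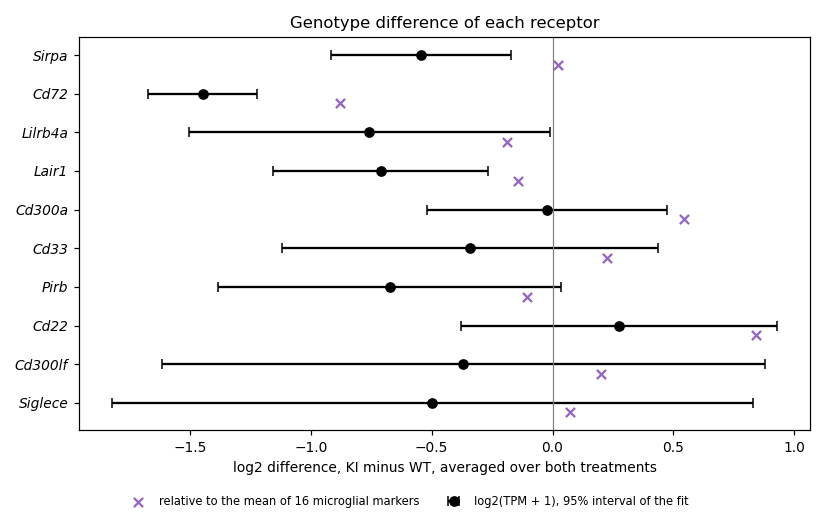
Difference between KI and WT of each receptor on the log2(TPM + 1) scale, averaged over both treatments, with black points for the fit, bars for its 95% interval (3 cultures a genotype, the libraries of a culture counted as independent) and crosses for the difference relative to the mean of 16 microglial markers. *Cd72*, at -1.45 and -0.88 relative to the markers, lies farthest to the left, a place that its choice by the genotype difference largely fixes.

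The microglial markers themselves were lower in KI, with 15 of 16 lower on average and 5 past the threshold (*Csf1r*, *Itgam*, *Aif1*, *C1qb* and *Fcrls*), of which *C1qb* alone passed without T15. Their mean log2(TPM + 1) differed between KI and WT by -0.57, and by -0.48 without T15. With IL-4, *Cx3cr1* fell (-1.16, adjusted p = 0.042) and *C1qa* rose (0.79, adjusted p = 0.0391, limma's F-test) among these markers. Relative to that mean in the same library, the KI minus WT difference of *Cd72* was -0.88, and -0.92 without T15. Without treatment it stood 1.00, 1.58 and 1.35 above the marker mean in WT and 0.80, 0.38 and 0.30 above it in KI. After IL-4 it was at 1.67, 2.30 and 1.95 in WT and at 0.89, 0.75 and 1.45 in KI. The genotypes did not overlap within either treatment. The same difference was 0.02 for *Sirpa*, -0.14 for *Lair1* and -0.19 for *Lilrb4a*, whose libraries overlapped between genotypes. Without T15 these became 0.19, 0.05 and 0.21, so the sign of the latter pair rested on that culture. It was -0.11 for *Pirb* and 0.07 for *Siglece* with T15 and 0.17 and -0.10 without it. It was positive both with and without T15 for *Cd33* (0.23 and 0.26), *Cd300a* (0.55 and 0.63), *Cd300lf* (0.20 and 0.89) and *Cd22* (0.84 and 1.02). How far the number of microglia, the expression of the markers in each cell or the astrocytes of T15 set these values was not tested.

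**Figure D3:**
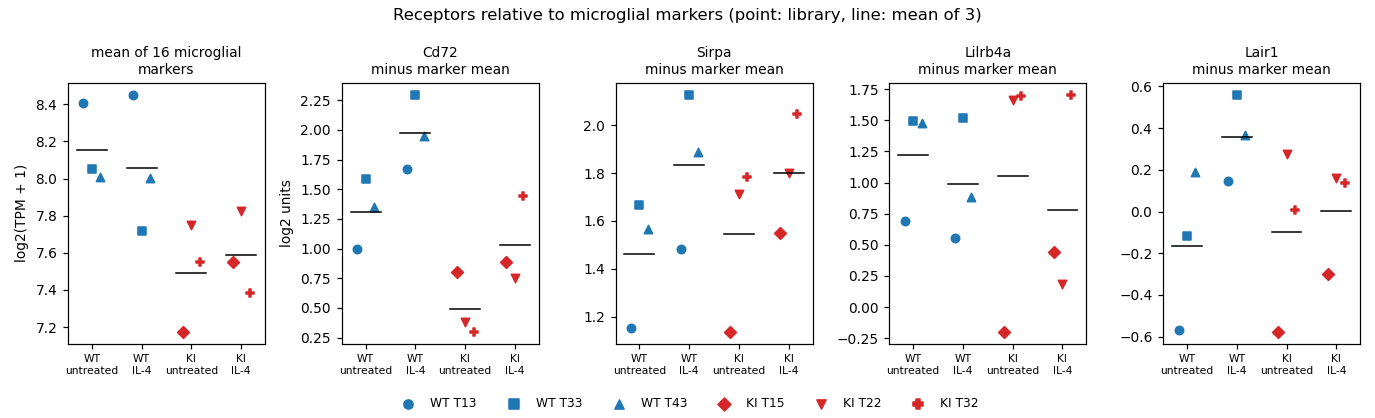
Left, mean log2(TPM + 1) of 16 microglial markers in each library, and right, log2(TPM + 1) of *Cd72*, *Sirpa*, *Lilrb4a* and *Lair1* minus that mean, with points for libraries, lines for the mean of 3 and a separate vertical scale in each panel. The KI points of *Cd72* lie below the WT points of the same treatment, while those of *Sirpa*, *Lilrb4a* and *Lair1* overlap with WT.

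IL-4 raised *Cd72* in the average over both genotypes. The difference between the IL-4-treated and the untreated library was positive in each of the 6 cultures, at 0.72, 0.38 and 0.59 in WT and at 0.45, 0.45 and 0.98 in KI. The average was 0.60 (SE 0.10, 95% interval 0.37 to 0.82, adjusted p = 0.00913, limma's test of the average alone). The F-test of IL-4 with its interaction, used for all genes here, gave an adjusted p of 0.0340, but it shares the interaction with the contrast that chose *Cd72*. Both tests use the spread that entered that choice. A choice by the smallest p-value favours a small spread, so both IL-4 p-values may be too low. In means, *Cd72* rose 1.47-fold in WT and 1.55-fold in KI. The call was not firm. For the average alone, the fits without T13, T32 and T43 put the adjusted p above 0.05 (0.0842, 0.0659 and 0.103), as did quantile normalization, median-ratio scaling and a fit with no variance trend, and it ran from 0.0017 to 0.103 over 15 alternatives. The F-test passed in 1 of the 6 fits that left out a culture, that without T15, and ran from 0.00649 to 0.273. The direction was the same in all of them. Past the threshold were 1.35% of the genes tested for the average alone and 0.893% for the F-test, and *Cd72* was the 1 receptor of the 10 in each. The difference between the genotypes' responses was 0.07 for *Cd72* (95% interval -0.38 to 0.52) and is a description, since it belongs to the contrast that chose the gene.

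The other 9 receptors did not pass the IL-4 test, and none of them had an unadjusted p below 0.05 in limma's F-test, where 7.27% of all genes did. *Sirpa* and *Cd22* were higher after IL-4 in all 6 cultures as well, which with *Cd72* makes 3 of 10 receptors where 5.73% of all genes did so, and no receptor was lower in all 6, where 2.51% of all genes were. The *Sirpa* difference was 0.31 (95% interval -0.06 to 0.68, adjusted p = 0.942, limma's F-test) and ranged from 0.10 in T32 to 0.79 in T15. The *Cd22* difference was 0.46 (95% interval -0.19 to 1.11, adjusted p = 0.963) and ranged from 0.09 in T22 to 1.30 in T15. *Lair1* averaged 0.31 and was positive in all 3 WT cultures and in T15, and at -0.04 and -0.03 in T22 and T32. *Lilrb4a* was lower in 5 cultures, by as much as 1.40 in T22, and higher by 1.01 in T15, for an average of -0.26 with T15 and -0.56 without it. *Cd33* was likewise lower in every culture but T15, with an average of -0.64 (95% interval -1.42 to 0.13). *Siglece*, *Pirb*, *Cd300a* and *Cd300lf* moved in both directions among the cultures. Across the 10, 7 averages were positive and 3 negative, with a median of 0.23 beside 0.04 over all genes tested. For the difference in response between genotypes, 0% of the genes passed the adjusted threshold in limma and 357 (3.19%) had an unadjusted p below 0.05, none of them among the 10 receptors.

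**Figure D4:**
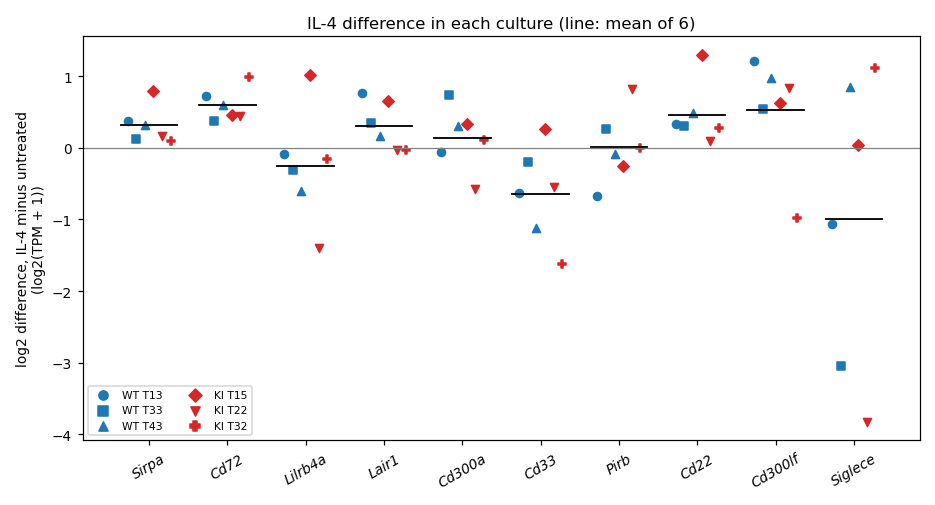
Difference between the IL-4-treated and the untreated library of each culture on the log2(TPM + 1) scale for the 10 receptors, with a line for the mean of 6 cultures. All 6 points lie above 0 for *Sirpa*, *Cd72* and *Cd22*, and T15 stands apart from the other cultures for *Lilrb4a* and *Cd22*.

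The genes whose profile over the 12 libraries lay nearest to that of *Cd72* were *Abi3*, *Ncf4*, *Gm42031*, *Bcl2a1d* and *Stap1*. Likeness was the root mean square difference between profiles centred on their own mean log2(TPM + 1), which was 0.28, 0.32, 0.32, 0.35 and 0.36. *Abi3* encodes a regulator of actin remodelling, *Ncf4* a subunit of the phagocyte NADPH oxidase and *Bcl2a1d* an anti-apoptotic protein. None of the other 9 receptors was among the 5, and the nearest of them were *Lair1* at 0.53 and *Sirpa* at 0.55.

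The molecules that ITIM receptors signal through were measured in the same libraries. Of 7 Src-family kinases and phosphatases, 6 were abundant enough to test. *Ptpn6*, which encodes SHP-1, was lower in KI and passed the test by a narrow margin. Its untreated levels were 284, 304 and 253 TPM in WT and 90.6, 175 and 178 TPM in KI, and after IL-4 at 268, 232 and 291 TPM in WT and 181, 163 and 159 TPM in KI, with no overlap in either treatment. Its difference was -0.81 (SE 0.16, adjusted p = 0.0407, limma's F-test), or -0.68 (adjusted p = 0.0376) without T15, the 1 of 6 fits leaving out a culture in which it passed (0.0528 to 0.214 in the other 5). With the astrocyte markers as a covariate it was -0.64 (adjusted p = 0.150). The call was also lost with a pseudocount of 0.1 (adjusted p = 0.0556), with no variance trend (adjusted p = 0.139) and with the culture as a block. *Ptpn11* (SHP-2) differed by 0.36 (0.52 without T15) and *Inpp5d* (SHIP1) by -0.34 (-0.11 without T15), and neither passed.

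IL-4 moved a pair of the kinases in opposite directions. *Fyn* rose in all 6 cultures, from 26.4 to 31.7 TPM to 113 to 133 TPM in WT and from 14.5 to 41.5 TPM to 60.9 to 105 TPM in KI. Its difference of 1.77 (SE 0.22, adjusted p = 0.0026, limma's F-test) passed in each fit that left out a culture. *Lyn*, the kinase best known for phosphorylating ITIMs, fell in all 6 cultures, from 151 to 183 TPM to 111 to 126 TPM in WT and from 128 to 155 TPM to 77.8 to 94.1 TPM in KI. Its difference was -0.61 (SE 0.11, adjusted p = 0.0391), and it did not pass in any fit that left out a culture, under quantile normalization or median-ratio scaling, or with no variance trend, with adjusted p-values from 0.0534 to 0.272.

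Among 14 other genes listed as ITIM receptors, 13 had a row under the listed symbol and 6 of these were tested. The other one, *Lilrb4b*, is taken here to be the gene that the annotation calls *Lilr4b*, whose levels stand beside *Lilrb4a* above. It differed by -0.45 between genotypes (adjusted p = 0.681) and by -0.13 with IL-4 (adjusted p = 1.00, limma's F-tests). *Clec12a*, a C-type lectin-like receptor for uric acid crystals, fell in KI. In untreated libraries it was at 95.05, 169 and 170 TPM in WT and at 25.9, 36.5 and 74.3 TPM in KI, with a difference of -1.59 over both treatments (SE 0.26, adjusted p = 0.0245, limma's F-test). Without T15 it was at -1.33 (adjusted p = 0.0785), without T22, T33 and T43 it did not pass either (adjusted p up to 0.188), and with the astrocyte covariate at -1.24 (adjusted p = 0.0855). Nor did it pass with no variance trend (adjusted p = 0.0806). *Fcgr2b*, the inhibitory Fc receptor for immunoglobulin G, rose with IL-4 in all 6 cultures. It went from 129 to 165 TPM to 264 to 455 TPM in WT and from 91.6 to 149 TPM to 274 to 366 TPM in KI, a difference of 1.32 (SE 0.16, adjusted p = 0.0018) that passed in each fit that left out a culture. The other 4 of the 6 passed neither test.

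No ligand of the 12 tested passed either test in the fit without a culture block, a result that changed for some of them with IL-4 under the block. *Sema4d*, the ligand of CD72, was at 104 to 124 TPM in untreated WT and 52.7 to 95.05 TPM in untreated KI, with a difference of -0.68 (adjusted p = 0.0972, limma's F-test), or -0.53 without T15. *Cd47*, the ligand of SIRPα, was at 143 to 194 TPM over the 12 libraries, with a difference of 0.01. The ligands with the highest levels were *Apoe*, at 26959 to 57962 TPM, and *B2m*, the light chain of the MHC class I ligands of PirB, at 5055 to 13776 TPM.

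Of the activating receptors and adaptors paired with these inhibitors, 12 of 14 had a row and 7 were tested. *Trem2* fell in KI by 1.43 on the log2 scale (SE 0.19, adjusted p = 0.0076, limma's F-test), close in size to *Cd72*, and was at -1.16 (adjusted p = 0.0053) without T15. It did not pass without T33 (adjusted p = 0.106), without T43 (adjusted p = 0.0766) or with no variance trend (adjusted p = 0.060). *Tyrobp* differed by -0.64 (adjusted p = 0.211) and *Fcer1g* by -0.68 (adjusted p = 0.0756), and without T15 by -0.34 and -0.49. *Cd300lb*, an activating CD300 receptor, rose with IL-4 in all 6 cultures, from 64.9 to 85.8 TPM to 182 to 215 TPM in WT and from 64.2 to 69.3 TPM to 113 to 233 TPM in KI. Its difference of 1.28 (SE 0.16, adjusted p = 0.0026) passed in each fit that left out a culture. Its inhibitory relatives *Cd300a* and *Cd300lf* averaged 0.14 and 0.53 with IL-4 and did not pass.

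**Figure D5:**
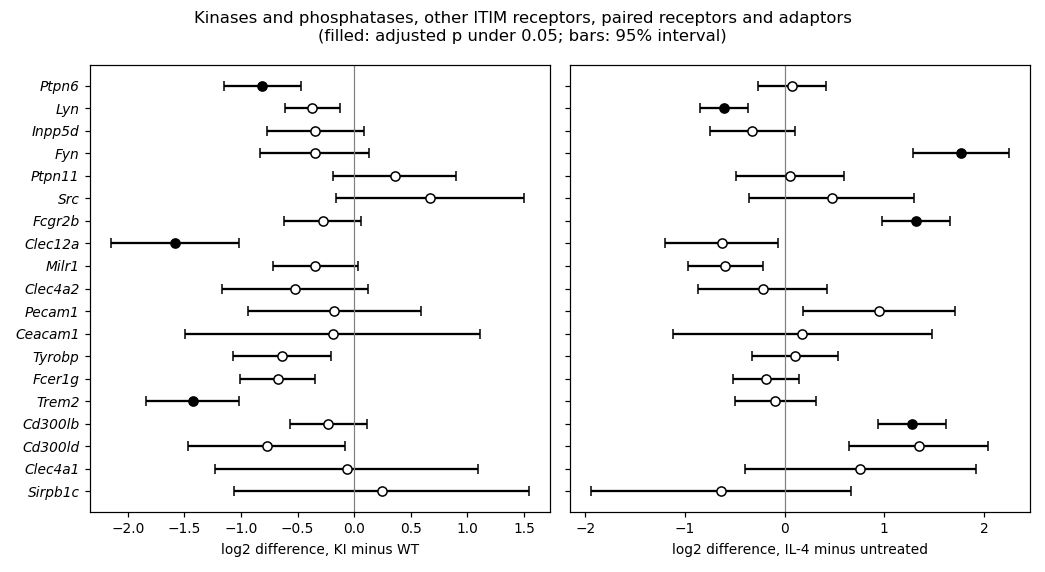
Differences on the log2(TPM + 1) scale between KI and WT (left) and between IL-4-treated and untreated libraries (right) for the tested kinases and phosphatases, other ITIM receptors and paired activating receptors and adaptors, with bars for the 95% interval and filled points for an adjusted p below 0.05. In the fit without a culture block, *Ptpn6*, *Clec12a* and *Trem2* are filled and lower in KI, and *Fyn*, *Fcgr2b* and *Cd300lb* are filled and higher with IL-4, with *Lyn* lower.

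Markers of other cells that could carry these receptors or lie in the cultures were read beside them. Of 6 neutrophil markers 3 were listed at 0 in every library and the sum reached at most 14.8 TPM. Of the border macrophage markers, *Mrc1* and *Ms4a7* rose with IL-4. *F13a1* was lower with IL-4 but did not pass, at a mean of 5.50 and then 2.00 TPM in WT and 4.56 and then 0.47 TPM in KI. The sum of 6 was 589 to 800 TPM in untreated KI and 946 to 1220 TPM in untreated WT. After IL-4 the sums overlapped, at 1034 to 2124 TPM in KI and 1200 to 1843 TPM in WT. Fibroblast and mural markers summed to 1051 to 1313 TPM in untreated KI and 141 to 320 TPM in untreated WT, with *Acta2* and *Tagln* past the threshold. Oligodendrocyte-lineage markers summed to 114 to 459 TPM and 34.7 to 90.2 TPM in the same groups, with *Olig1* past the threshold and higher in KI (2.69, adjusted p = 0.0438, limma's F-test), though not without T15 (adjusted p = 0.146). Their part in the receptor differences was not tested.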

How the data were processed

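The authors deposited 1 table of TPM, with a column for each library. Per the study's methods and processing notes, reads were trimmed with Trim Galore, quantified with Salmon on ENSEMBL GRCm38 and summarised per gene with tximport; the authors tested counts with DESeq2. Counts were not analysed here, so limma replaced that test. No depth can be read from TPM, and precision rests on the spread between libraries of a group.

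Identifiers were matched to GENCODE M21 (GRCm38), which named 48350 of 48623 genes. Genes with a mean log2(TPM + 1) above 1.5 (11204) were fitted with limma 3.58.1 in R 4.3.3 (variance trend on) with genotype, IL-4 and their interaction. The genotype test is the F-test of genotype and interaction, the IL-4 test that of IL-4 and interaction, and p-values were adjusted by Benjamini-Hochberg over all genes tested (threshold 0.05). The study's figure legends give 3 mice per genotype and condition, and its methods describe separate cultures of knock-in pups. The labels tie no library to an animal, so p-values measure the spread between these samples. The reported fit has no culture block and counts the libraries of a culture as independent. Its genotype SEs, intervals and p-values are too narrow where libraries of a culture resemble each other. Folds on this scale understate changes of low genes.

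The members and gene lists were chosen with earlier results of these data known. Named were all members, every gene of the 4 pathway lists past a threshold or else the 2 most abundant of its list, the 5 profiles nearest to *Cd72*, and *Trem2*; *Spi1*, *Lilr4b*, the genes overlapping members, the cell type markers and the other list genes given with values were named after values were seen. *Lilrb4b* (read as *Lilr4b*, outside the list counts), *Pira1* and *Pira6* had no row under those symbols. Another 2 genes of the lists were left out of the counts and are not reported here, and the remaining list genes enter the counts, with values given for those named. The fit was tested on simulated data. Figures were drawn with Python 3.11.15 and matplotlib 3.10.9.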

Additional observations from a re-analysis of the deposited data

How the results depend on the processing

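*Cd72* was higher after IL-4 in all 17 alternatives tried, of which 11 put the IL-4 F-test above the threshold. Of the other 9 receptors, *Lair1* passed a genotype test without culture T22, and none passed an IL-4 test. The genes past the genotype threshold, 185 in the reported fit, numbered 16 with no filter, 26 with no variance trend, 71 with the astrocyte covariate (chosen after seeing the data), 575 with the test of the average alone, 102 from untreated and 2 from IL-4-treated libraries alone. With a culture left out they numbered 3 (without T33) to 191, and 49, 99 and 16 without T15, T32 and T43, with 1 to 2 receptors among them, the chosen *Cd72* counted. For IL-4, 100 genes became 61 with no filter, 50 with no trend, 191 with the covariate, 151 with the average alone, 64 in WT alone and 45 in KI alone. They were 46 (without T43) to 143 with a culture left out, with 0 to 1 receptors, and the interaction had 4 genes with no filter. No receptor passed for IL-4 with no filter, quantile normalization, median-ratio scaling, no trend, WT alone or KI alone. The cause of these shifts was not tested.

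Signs turned in differences that passed no test. For genotype these were *Cd22* at -0.034 under quantile normalization, *Cd300a* at 0.22 and *Cd300lf* at 0.28 with the covariate, and 0.16 and 0.0057 in untreated libraries alone. With a culture left out, *Cd22* ran from -0.0061 to 0.54, *Cd300a* from -0.30 to 0.16 and *Cd300lf* from -1.05 to 0.41. For IL-4 they were *Pirb*, at -0.034 under quantile normalization, -0.039 under median-ratio scaling and -0.17 in WT alone, and *Cd300a*, at -0.043 in KI alone. *Pirb* ran from -0.15 to 0.13 and *Lilrb4a* from -0.56 to 0.046 with a culture left out. The interaction turned for *Cd33* (-0.0057) and *Siglece* (-0.0083) with a pseudocount of 0.1. With a culture left out it ran from -0.11 to 0.16 for *Cd72*, -0.19 to 0.42 for *Cd22*, -0.43 to 0.51 for *Cd33*, -0.81 to 1.66 for *Siglece*, -0.44 to 0.76 for *Lilrb4a* and -0.14 to 0.20 for *Sirpa*.

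With the culture as a replicate block, 77 genes passed for genotype (random block, within-culture correlation 0.20) and 240 for IL-4 (fixed block), *Cd72* among the latter. For IL-4 the block also added 4 of the 12 ligands, with *H2-K1*, *H2-D1* and *Fn1* higher and *Apoe* lower, *Cd300ld*, which was higher, and the microglial markers *C1qb*, *C1qc* and *Fcrls*, also higher. For genotype *Ptpn6* no longer passed (adjusted p = 0.0819, limma), nor did *Csf1r*, *Itgam*, *Fcrls* and *Olig1* among the markers. Libraries that share a number deviated from their group means together, with correlations of 0.08 to 0.38, and 5 of 6 cultures matched their own number best. The labels do not say what the number marks.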
